A study of Mus musculus with 9 samples.

Results

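The right atrium of adult mice whose heart muscle cells lack the nuclear receptor COUP-TFII was set against true ventricle, to describe what still separates the mutant chamber from the tissue it was compared with. The comparison rests on 6 of the 9 arrays of the series, 3 of mutant right atria and 3 of control ventricles, and on all 18193 genes measured. Mutants carried the genotype Myh6-cre; COUP-TFIIflox/flox, in which Cre recombinase is driven by the Myh6 promoter, active in cardiomyocytes, and removes the floxed Nr2f2 gene there. The ventricles came from COUP-TFIIflox/flox mice without Cre. All animals were 2 months old and on the C57BL/6 background, and none of the controls carried Cre: what the recombinase does and what the deletion does cannot be told apart. Chamber and genotype also differ together here. The 3 right atria of COUP-TFIIflox/flox controls were used to say which genes are atrial and which ventricular. The labels call the replicates biological but do not say how many animals each holds.

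Mammalian atria and ventricles use largely the same contractile machinery with chamber-specific parts: their own myosin light chains, calcium pump regulators, ion channels and secreted peptides. COUP-TFII, encoded by Nr2f2, is an orphan nuclear receptor of the steroid receptor superfamily that marks atrial muscle, veins and several kinds of mesenchyme. In the heart it is known as a factor of atrial identity, and Irx4 and Hey2 are known as factors of ventricular identity.

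Values are log2 intensities of 1 probe set per gene, and differences are log2 ratios of mutant right atrium over control ventricle ± SE from a limma fit of all 9 arrays, with 3 arrays per group and p-values adjusted by Benjamini-Hochberg over all genes. The highest log2 intensity per array lay between 15.02 and 15.11, and 15 genes lay above a level 0.5 below the lowest of these maxima in both tissues, where differences are compressed. The 12 lung and thymus markers, which mark tissues outside the heart, averaged 3.86 to 6.84 in ventricles and 3.61 to 6.63 in the mutant, and folds against levels that low are compressed as well. Of the sex-linked transcripts, Xist read 12.48, 6.73 and 6.48 in mutant replicates 1, 2 and 3 and 11.84, 11.87 and 11.80 in the ventricles. The Y-linked Eif2s3y read 3.90, 10.01 and 10.05 in the mutants and 3.82, 3.70 and 3.67 in the ventricles. Only mutant replicate 1 resembled the ventricles in these genes. The control atria were mixed, with Xist at 12.73, 8.55 and 10.91 and Eif2s3y at 6.35, 9.97 and 9.53. As a measure of RNA quality, the 3′ minus 5′ log2 difference of Gapdh ranged from 0.214 to 0.304 over the mutant atria and from 0.153 to 0.227 over the ventricles. It was 0.345 to 0.364 over the control atria, which overlapped neither group and which enter the definition of every class, and its part in the results was not tested.

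The knocked-out gene did not fall to the level of ventricle. Nr2f2 read 6.82, 6.62 and 6.82 in mutant atria and 5.96, 5.34 and 5.74 in ventricles. Each mutant array lay above each ventricle, by 1.07 ± 0.15 (adjusted p = 0.000611), and below each control atrium, where the values were 7.53, 7.66 and 7.29. Nr2f1, its close relative COUP-TFI, read 8.93, 8.24 and 8.85 in mutant atria against 6.90, 6.79 and 6.97 in ventricles, a difference of 1.79 ± 0.17. For Nr2f2 the ventricle mean of 5.68 lay within the range of the lung and thymus markers. The mutant mean of 6.75 lay just above theirs, which ended at 6.63. Whether the Nr2f2 probe set used lies within the deleted part of the gene was not determined, and other cell types of the tissue keep Nr2f2.

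The mutant right atrium was still far from ventricle in its transcripts. In all, 5956 genes (32.7% of those tested) were called different and 815 (4.48%) at least 2-fold. As shares of all genes tested, 2910 (16%) were higher and 3046 (16.7%) lower in mutant atrium, of which 619 (3.4%) were at least 2-fold higher and 196 (1.08%) at least 2-fold lower. The median log2 ratio over all genes was -0.051, and the median absolute ratio of the called genes was 0.44. All mutant arrays lay above all ventricles in 20.5% of genes and below them in 26.8%. Centring each array on its median moved the median of all genes to -0.152 and the split to 2244 higher and 5884 lower, and quantile normalisation gave 2620 and 3571, so small changes are best read relative to that shift. List counts given below with median centring belong beside its split of all genes, 2244 higher and 5884 lower, and not beside 16% and 16.7%. With the mean of 3 Y-linked genes as a covariate, chosen after seeing the data, 4448 genes were called.

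Control right atrium and ventricle differed at least 2-fold in 878 genes higher in atrium (4.83%) and 420 higher in ventricle (2.31%). Of the 878 atrial genes, 447 (50.9%) stayed at least 2-fold above ventricle in the mutant, 260 stayed above by less, 167 did not differ from ventricle at the threshold and 4 lay below it. Among the 167 were liver transcripts such as Alb, high in control atria alone, and the Y-linked Eif2s3y. The 878 are therefore not all genes of atrial muscle, which also bears on the shares and positions given here. Of the 420 ventricular genes, 159 (37.9%) stayed at least 2-fold below ventricle, 188 stayed below by less, 63 did not differ at the threshold and 10 lay above it. On a scale where 0 is the ventricle and 1 the control atrium, the mutant stood at a median of 0.665 for the atrial genes (quartiles 0.423 and 0.893) and at 0.639 for the ventricular genes (quartiles 0.429 and 0.792). Both contrasts share the ventricle arrays, and the control atria also served to choose the genes, so these positions are a description. The 447 genes are called kept atrial genes below and the 159 missing ventricular genes.

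**Figure D1:**
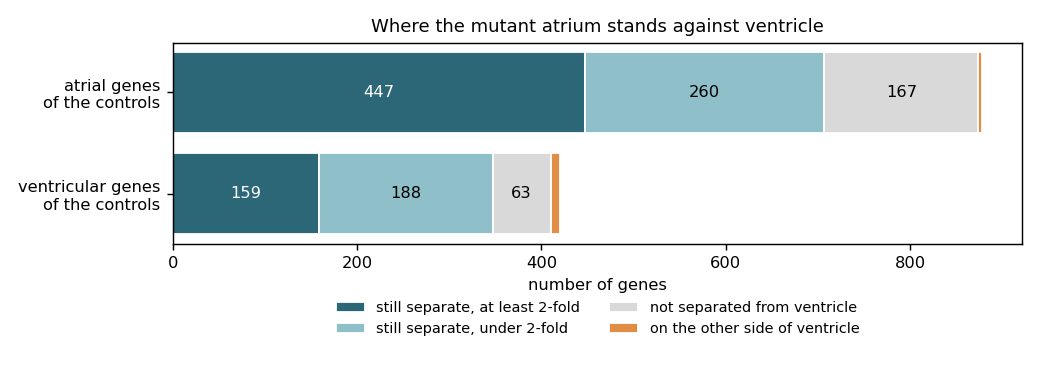
Number of genes (x axis) that differ at least 2-fold between control right atrium and control ventricle, split by where the mutant right atrium stands against ventricle. The dark segments hold the 447 atrial and 159 ventricular genes that stayed at least 2-fold apart from ventricle, and the narrow orange segments the 4 and 10 genes on the other side of it. The atrial genes include liver transcripts that were high in control atria alone.

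The kept atrial genes, 2.46% of all genes tested, were led by parts of the atrial contractile apparatus and its calcium control. Their median difference from ventricle was 1.54, and at the other end Shroom2 at 1.00139 lay just inside the 2-fold limit while Nmrk2 at 0.99894 lay just outside. In 274 of them mutant and control atria did not differ at the threshold, 147 were lower and 26 higher in mutant than in control atrium, where 9.79% and 7.76% of all genes were. The genes were chosen as high in the same control atria, which favours lower mutant values, so this split is a description. Of 469 other probe sets for 255 of these genes, 281 were also called higher than ventricle, 184 were not called and 4 were called lower, where 13.4% of all probe sets were called higher. In 192 of the 447 the ventricle mean lay within the range of the lung and thymus markers.

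Sarcolipin (Sln), an inhibitor of the sarcoplasmic calcium pump, read 12.85, 12.19 and 13.55 in mutant atria and 6.71, 4.59 and 4.94 in ventricles. All mutant arrays lay far above all ventricles and below the control atria, which read 14.62, 14.62 and 14.59. The difference from ventricle was 7.45 ± 0.50, or 175-fold (adjusted p = 7.61e-06). Myl7, the regulatory light chain of atrial myosin, read 13.89, 12.67 and 14.12 in mutants and 8.36, 6.16 and 6.08 in ventricles, with control atria at 14.95, 14.90 and 14.89. Here too the groups were far apart, by 6.70 ± 0.57 or 104-fold (adjusted p = 2.9e-05), and ventricle replicate 1 was the highest ventricle for both genes. Myl4, the essential light chain of atrial myosin, read 14.37, 14.15 and 14.56 against 9.04, 6.52 and 8.32, a difference of 6.40 ± 0.50. It lay near the array maximum in the atria, and mutant and control atria did not differ at the threshold (adjusted p = 0.526). Mybphl, a myosin-binding protein found in atria, read 12.44, 11.57 and 12.68 in mutants and 6.67, 6.73 and 6.57 in ventricles, 47.7-fold apart (adjusted p = 5.3e-07).

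RefSeq promoters of the GRCm38.p6 build, 250 bases upstream of the start, are shown for Myl7 and Mybphl because each holds a match to a cardiac motif. Letters in capitals mark the match: in Myl7 a CArG box, the serum response factor motif, from base -61, and in Mybphl a GATA factor site (AGATAA) from base -141. The Myl7 stretch is chr11:5898783-5899032 on the minus strand and the Mybphl stretch chr3:108364661-108364910 on the plus strand. A match describes the letters and is not a shown binding site.
Myl7: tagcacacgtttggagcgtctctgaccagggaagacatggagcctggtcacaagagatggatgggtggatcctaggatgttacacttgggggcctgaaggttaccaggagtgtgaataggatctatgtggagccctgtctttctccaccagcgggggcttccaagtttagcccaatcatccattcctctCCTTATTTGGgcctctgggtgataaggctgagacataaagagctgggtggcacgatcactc
Mybphl: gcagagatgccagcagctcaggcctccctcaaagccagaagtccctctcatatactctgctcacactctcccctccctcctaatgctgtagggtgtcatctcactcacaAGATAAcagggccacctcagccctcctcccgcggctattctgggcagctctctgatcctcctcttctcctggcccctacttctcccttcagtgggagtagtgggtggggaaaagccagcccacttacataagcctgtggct

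Other leading kept genes were signalling and membrane proteins and markers of resident immune cells. Dkk3, a secreted protein of the dickkopf family, read 12.26, 11.82 and 12.32 in mutants against 6.53, 6.50 and 6.64 in ventricles, 47.6-fold apart (adjusted p = 2.34e-08), and lower than in control atria by 1.37. Cacna2d2, an auxiliary subunit of voltage-gated calcium channels, read 11.52, 10.97 and 11.83 against 6.34, 5.72 and 5.94, a difference of 5.44 ± 0.21, beside 5.10 in control atrium. Only the probe set used showed it: the other 2 of that gene gave 0.17 and -0.25 at lower signal. The zinc transporter Tmem163 (5.49 ± 0.28) and the melanosome protein Mlana (4.95 ± 0.46) were also among the 12 leading kept genes, and for Mlana mutant replicate 2 was low at 8.61 against 10.77 and 10.48. Cd207 (langerin), Vsig4, a complement receptor of tissue macrophages, and the chemokine Cxcl13 differed from ventricle by 5.04 ± 0.12, 4.99 ± 0.12 and 4.82 ± 0.19. In these 3 genes mutant and control atria did not differ at the threshold (adjusted p = 0.23, 0.115 and 0.099).

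**Figure D2:**
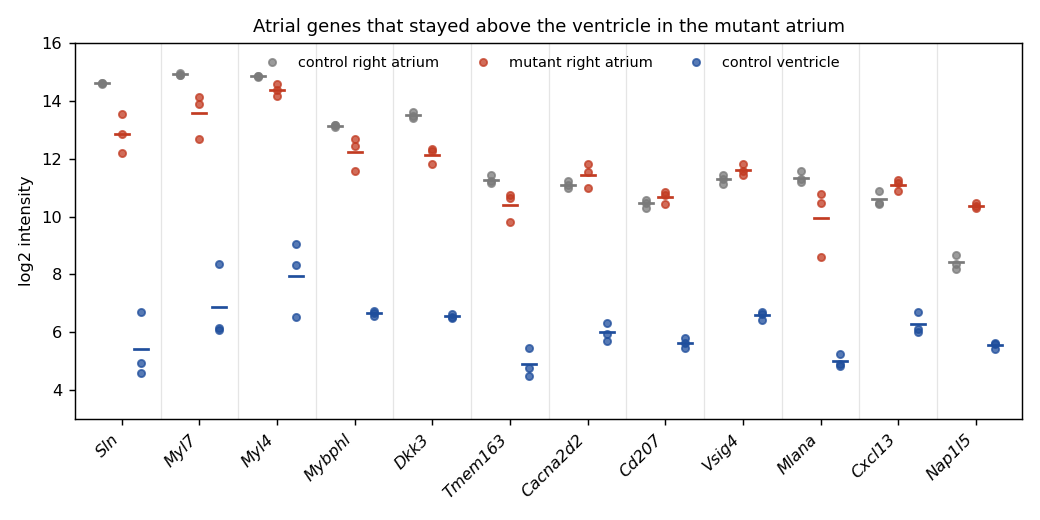
Log2 intensity (y axis) of the 12 kept atrial genes with the largest difference between mutant right atrium and ventricle (x axis). Points are arrays, 3 per group, and short lines are group means. For all 12 genes the mutant arrays lie above all ventricles, which was a condition of the choice. For Nap1l5 they also lie above the control atria.

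The 3 mutant atria did not stand equally far from ventricle. In the kept atrial genes replicate 2 was the lowest of the 3 mutants in 258 of 447 genes and replicate 1 the highest in 234. In the missing ventricular genes replicate 2 was the highest in 97 of 159 genes and replicate 1 the lowest in 98. Median deviations from the mutant mean were small, -0.11 and 0.12 for replicate 2 in these classes and 0.08 and -0.13 for replicate 1. Replicate 1 was the mutant with high Xist, and the part of sex in this order was not tested. Without mutant replicate 2 there were 465 kept and 175 missing genes, and without replicate 1 there were 437 and 139. Leaving out replicate 3 gave 437 and 162, so the kept count did not set replicate 1 apart from replicate 3.

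The hand-written list of atrial muscle genes was mostly higher in mutant atrium than in ventricle. Of 27 measured members, 22 were higher and 2 lower (median 1.82), beside 16% and 16.7% of all genes. The kept class held 17 of them. Among secreted products, Nppa, the atrial natriuretic peptide, read 15.09, 15.05 and 15.06 against 12.82, 12.49 and 13.10 in ventricles, and did not differ at the threshold from control atria (15.11, 15.09 and 15.11), both at the array maximum. Nppb, the B-type peptide, read 13.11, 13.47 and 14.04 against 12.83, 12.33 and 12.09, a difference of 1.12 ± 0.23 (adjusted p = 0.00488). The Nppb groups did not overlap, but with the Y-linked covariate the adjusted p was 0.0571. Bmp10, a ligand secreted by atrial muscle, differed by 3.26 ± 0.31 and adrenomedullin (Adm) by 2.38 ± 0.16. Pam, which amidates peptides in atrial granules, differed by 1.82 ± 0.19. Tbx5, a T-box factor of atrial and conduction tissue, read 10.56, 10.24 and 10.49 against 8.78, 8.85 and 8.89, so that the mutant stood 3.01-fold above ventricle but below control atrium by 0.86. Of the ion channels on the list, Kcnj3 and Kcnj5, the subunits of the acetylcholine-gated potassium channel, were higher by 1.73 ± 0.19 and 0.95 ± 0.10 and Cacna1d, a pacemaking calcium channel, by 2.12 ± 0.10. Kcna5, listed for its atrial potassium current, went the other way: it was lower in mutant atrium than ventricle by 1.55 ± 0.19 (2.94-fold) and lower still in control atrium. Kcnk3 was lower by 0.31 ± 0.08 (adjusted p = 0.0153), a call lost without mutant replicate 2 or 3 or ventricle replicate 3.

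The missing ventricular genes, 0.874% of all genes tested, had a median difference from ventricle of -1.27 and included a transcription factor, muscle structural proteins and metabolic enzymes. Ctla4 and Gpat3 lay just inside and just outside the 2-fold limit of this class. In 99 of the 159 mutant and control atria did not differ at the threshold. In the mutant 57 were higher, that is, nearer to ventricle, and 3 lower, where 7.76% and 9.79% of all genes were. The genes were chosen as low in the same control atria, which favours higher mutant values, so this split too is a description. In 44 of the 159 the mutant mean lay within the range of the lung and thymus markers, among them Lrtm1, Irx4, Bex1, Cpxm2, Cntn5 and Aqp7. Of 119 other probe sets for 77 of these genes, 88 were also called lower than ventricle, 30 were not called and 1 was called higher, where 14.1% of all probe sets were called lower.

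Lrtm1, a leucine-rich repeat transmembrane protein of cardiac muscle, read 5.65, 5.92 and 6.05 in mutant atria and 10.51, 10.71 and 10.43 in ventricles. The groups lay far apart, 25.6-fold or -4.68 ± 0.12 (adjusted p = 2.34e-08), and the mutant arrays were as low as the control atria at 6.27, 6.04 and 6.05. Irx4, an Iroquois factor that represses atrial genes in ventricle, read 5.31, 6.40 and 6.10 against 9.16, 8.89 and 8.82 in ventricles. It was 8.12-fold below ventricle (adjusted p = 1.79e-05), although above control atrium by 0.99, where it read 4.74, 5.06 and 5.05. Timp4, an inhibitor of matrix metalloproteinases expressed in heart, read 6.79, 7.28 and 6.74 against 10.13, 10.44 and 10.44, 10.5-fold lower. Mutant Timp4 also stood above control atrium, by 1.20. Acta1, skeletal alpha-actin, read 7.20, 8.27 and 8.36 in mutants and 11.76, 9.77 and 12.21 in ventricles, a difference of -3.31 ± 0.56 (adjusted p = 0.00155). Ventricle replicate 2 was the low ventricle, and no mutant array reached it. Rpl3l, a muscle-specific ribosomal protein, read 9.93, 9.44 and 9.43 against 12.45, 12.50 and 12.43, 7.26-fold lower.

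Promoters of Acta1 and Rpl3l are shown because they hold matches to muscle and nuclear receptor motifs, from RefSeq in the GRCm38.p6 build, 250 bases upstream of the start. In Acta1 (chr8:123894776-123895025, minus strand) capitals mark a CArG box from base -73 and the TATA box letters TATAAA from base -7. Here too a match describes the letters only, and whether TATAAA so close to the listed start acts as a TATA box was not tested. In the downstream of the 2 Rpl3l promoters (chr17:24732435-24732684, plus strand) capitals mark 3 nuclear receptor half-sites (AGGTCA) from bases -242, -215 and -43 and a MEF2 consensus from base -123. The upstream Rpl3l promoter (chr17:24727576-24727825), not shown, held none of these, only a GATA factor site from base -215. Which of the 2 starts is used in these tissues was not tested.
Acta1: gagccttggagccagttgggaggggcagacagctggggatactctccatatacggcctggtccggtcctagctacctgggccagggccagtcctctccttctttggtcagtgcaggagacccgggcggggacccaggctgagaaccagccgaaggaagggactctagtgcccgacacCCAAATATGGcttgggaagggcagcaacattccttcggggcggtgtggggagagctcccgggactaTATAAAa
Rpl3l: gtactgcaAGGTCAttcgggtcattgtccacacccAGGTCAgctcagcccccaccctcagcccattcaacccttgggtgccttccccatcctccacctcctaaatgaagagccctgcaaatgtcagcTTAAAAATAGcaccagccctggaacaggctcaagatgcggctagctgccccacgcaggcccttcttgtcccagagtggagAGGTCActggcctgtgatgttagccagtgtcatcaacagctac

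The other missing genes with the largest differences were of several kinds. Myot, a Z-disc protein, read 6.42, 8.61 and 7.43 in mutants and 10.87, 10.67 and 11.17 in ventricles, so that mutant replicate 2 stood nearest to ventricle. The mutant arrays of Ankrd23, a titin-binding stress protein (7.87, 9.95 and 9.93 against 11.91, 11.68 and 11.88), and of Bdh1, a ketone body dehydrogenase (7.30, 9.99 and 8.56 against 11.48, 10.98 and 10.94), were as uneven, with replicate 1 lowest in each. Also far below ventricle were Cpxm2, a secreted carboxypeptidase-like protein (-3.19 ± 0.27), the adhesion protein Cntn5 (-2.86 ± 0.18) and Aqp7, a glycerol channel (-2.54 ± 0.27).

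**Figure D3:**
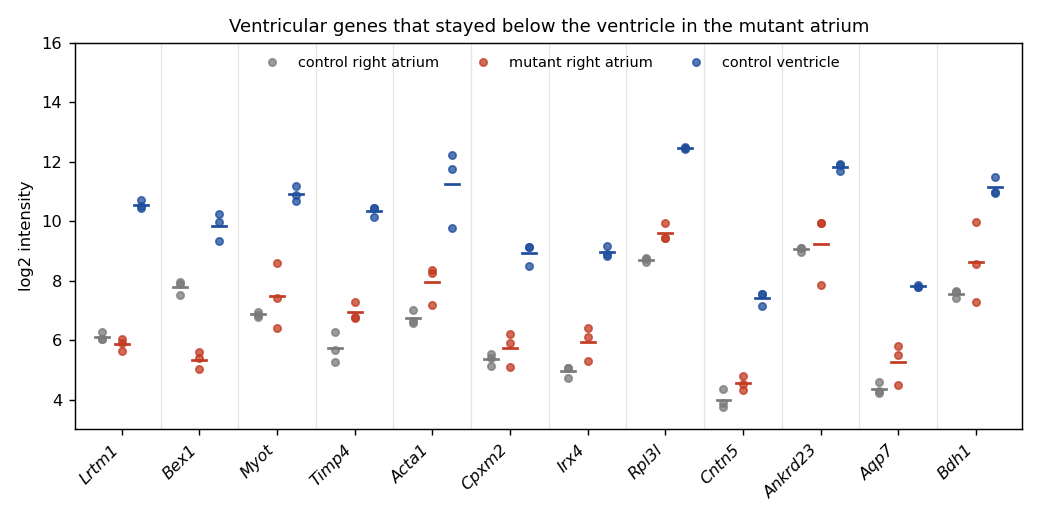
Log2 intensity (y axis) of the 12 missing ventricular genes with the largest difference between mutant right atrium and ventricle (x axis). Points are arrays, 3 per group, and short lines are group means. All mutant arrays lie below all ventricles, which was a condition of the choice, and for Bex1 also below the control atria.

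The hand-written list of ventricular muscle genes was mixed. Of 22 measured ventricular muscle genes, 10 were lower and 3 higher in mutant atrium than ventricle, beside 16.7% and 16% of all genes. Their median was -0.17. Myl2, the ventricular regulatory light chain, read 14.87, 14.93 and 14.77 against 15.00, 15.00 and 15.02, near the array maximum, and did not differ at the threshold (-0.15 ± 0.23, adjusted p = 0.642), while control atria read 10.50, 11.66 and 10.97. Every mutant array lay below every ventricle. The SE is pooled over all groups, and the SD was 0.58 in control atria, 0.08 in mutants and 0.01 in ventricles. Myl3, the ventricular essential light chain, was slightly lower (-0.31 ± 0.10, adjusted p = 0.0336), a call lost when mutant replicate 1 or 3 or any 1 ventricle was left out. Fhl2, a LIM protein of the sarcomere, was lower by 0.35 ± 0.06 and Kcnip2, a subunit of the fast transient outward current, by 0.99 ± 0.12. Creatine kinase Ckm and the glucose transporter Slc2a4 were lower by 0.73 ± 0.08 and 0.63 ± 0.07. Hey2, a factor of ventricular identity, was lower by 0.54 ± 0.12 at levels near background. It was not ventricular in these controls, with means of 5.27 in control atrium and 5.24 in ventricle. The mutant lay below control atrium too, by 0.57. Pln, the calcium pump regulator phospholamban (-0.05 ± 0.06), and the connexin Gja1 (-0.16 ± 0.08) did not differ at the threshold.

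Some ventricular genes exceeded ventricle in the mutant atrium. Myh7, the slow myosin heavy chain, read 11.96, 12.24 and 12.03 in mutants and 11.01, 10.57 and 11.64 in ventricles, with control atria at 8.50, 8.44 and 8.55. Every mutant lay above every ventricle, by 1.00 ± 0.22 (adjusted p = 0.00628), and at 0.99963 it fell just short of the 2-fold limit. Irx3, an Iroquois factor of the ventricular conduction system, read 11.52, 11.95 and 11.51 against 10.70, 10.19 and 10.55, 2.26-fold higher (adjusted p = 0.000287). Irx5 read 9.41, 10.05 and 9.46 against 8.52, 7.72 and 8.36, 2.71-fold higher (adjusted p = 0.000785). Both lay beyond ventricle, whereas Irx4 stayed far below it. Cenpf, a centromere protein that also serves in muscle cells, read 10.80, 10.79 and 10.74 against 9.19, 9.68 and 8.69. Of the 10 ventricular genes of the controls on the far side of ventricle, 6 were at least 2-fold above it: Irx3, Irx5, Cenpf, Thbs4, Phlda1 and Masp1, the last 2 chosen after their values were seen.

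The genes above both control tissues numbered 52 (0.286% of all genes tested), with a median difference of 1.99 from ventricle, and 11 of them were also kept atrial genes. They included secreted matrix and guidance proteins. Of 53 other probe sets for 26 of these genes, 32 were also called higher than ventricle, 20 were not called and 1 was called lower. Among all probe sets 13.4% were called higher. In 30 of the 52 the ventricle mean lay within the range of the lung and thymus markers, and Parm1 lay just inside the 2-fold limit with Myh7 just outside.

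Slit2, a secreted guidance ligand of Robo receptors, read 12.62, 12.45 and 12.43 in mutant atria, 7.70, 8.17 and 8.05 in ventricles and 8.55, 8.13 and 8.49 in control atria. No control array came near the mutants, which stood 23-fold above ventricle (4.53 ± 0.14, adjusted p = 1.03e-07), and both other probe sets gave like differences of 4.82 and 3.72. Thbs4, a matrix thrombospondin of tendon and stressed heart, read 12.43, 11.75 and 12.14 against 8.14, 8.08 and 7.92 in ventricles and 6.96, 6.87 and 6.95 in control atria, 16.6-fold above ventricle (adjusted p = 2.54e-07). Fbn2, fibrillin of developing microfibrils, read 9.16, 10.06 and 9.64 against 5.84, 5.84 and 5.83, a difference of 3.79 ± 0.18. Sema3a, a secreted semaphorin, read 10.02, 9.30 and 9.82 against 6.95, 6.63 and 6.50, 8.11-fold higher. All 3 of these genes stood clear of both control tissues. Kcne1l, a potassium channel accessory subunit, was uneven: it read 10.53, 6.69 and 9.92 in mutants against 4.76, 4.93 and 4.94 in ventricles, so that replicate 2 lay far below the other mutants but above every control.

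The promoter of Slit2 is shown because it holds a match and the gene differed most from ventricle among those of this class that are not kept atrial genes, from RefSeq in the GRCm38.p6 build (chr5:47982905-47983154, plus strand, 250 bases upstream of the start), with a TATA box (TATAAA) from base -28 in capitals.
Slit2: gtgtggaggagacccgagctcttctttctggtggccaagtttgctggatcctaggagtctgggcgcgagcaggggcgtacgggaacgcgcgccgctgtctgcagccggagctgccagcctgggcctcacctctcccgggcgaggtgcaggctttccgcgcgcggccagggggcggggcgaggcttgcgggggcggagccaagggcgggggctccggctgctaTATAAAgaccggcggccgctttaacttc

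The receptor and transporter genes of this class were even across arrays. Drd2, a dopamine receptor, read 10.12, 9.99 and 9.75 against 7.01, 6.73 and 6.87 in ventricles, 8.45-fold higher, and Slc16a12, a transporter of the monocarboxylate family, was 9.70-fold higher. Psca, a small surface protein anchored by lipid, was 6.73-fold higher, and Pkib, a protein kinase A inhibitor, 3.96-fold. The water channel Aqp4 was 4.06-fold higher by the probe set used, while 1 of its other 2 probe sets gave -0.21. Etv5, an ETS factor, read 9.34, 9.48 and 9.33 against 7.47, 7.32 and 7.44 and did not differ between the controls at the threshold. Nap1l5, of the nucleosome assembly protein family, stood above ventricle by 4.82 ± 0.12 and above control atrium by 1.96.

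Below both control tissues were 7 genes (0.0385%), a class whose size depended on the mutant arrays, since without mutant replicate 1 it held 15. Bex1, a small brain-expressed X-linked protein, read 5.61, 5.04 and 5.40 in mutants, 9.33, 9.97 and 10.23 in ventricles and 7.97, 7.53 and 7.88 in control atria. It lay 22.5-fold below ventricle (adjusted p = 1.82e-06). Efnb3, a membrane-bound ephrin, read 8.14, 8.26 and 8.42 against 10.26, 10.51 and 10.12, 4.06-fold lower. Ces1d, a carboxylesterase, was lower by 1.60 ± 0.30, the growth factor Egf by 1.23 ± 0.24, the cAMP phosphodiesterase Pde7a by 1.05 ± 0.20 and the serine protease Klk8 by 1.01 ± 0.07, just inside the limit. All 7 Pde7a probe sets were lower. In Trim12a, the remaining member, the arrays of mutant and ventricle overlapped.

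**Figure D4:**
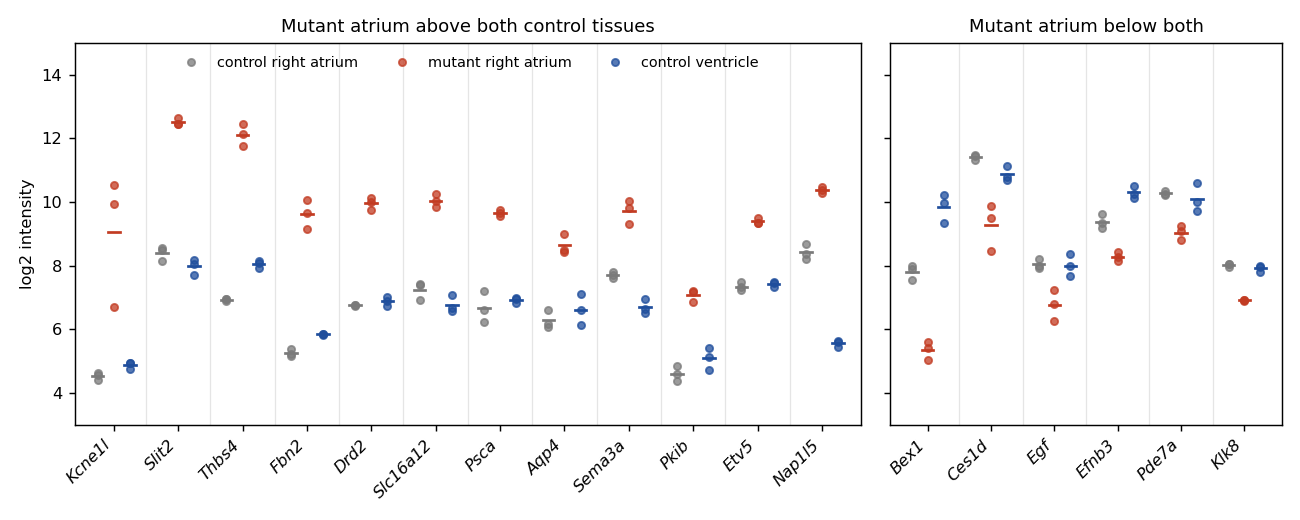
Log2 intensity (y axis) of genes (x axis) in which the mutant right atrium lay above both control tissues (left, 12 genes) or below both (right, 6 genes). Points are arrays, 3 per group, and short lines are group means. Kcne1l has 1 low mutant array at 6.69, and Nap1l5 and Sema3a are also atrial in the controls.

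The promoter windows of the classes were searched on both strands for 5 motifs. The nuclear receptor half-site AGGTCA was in 9.15% of 437 promoters of kept genes, 18.5% of 178 of missing genes and 4.55% of 44 of genes above both, beside 12.5% of the promoters of all genes on the array. The MEF2 consensus was in 1.83%, 5.06% and 0% against 1.94%, and the CArG box in 2.29%, 2.81% and 4.55% against 1.23%. The GATA site AGATAA was in 7.78%, 11.2% and 11.4% against 7.4%, and TATAAA in 10.1%, 12.9% and 11.4% against 8.81%. TATAAA can overlap a MEF2 consensus. Promoters were held for 330 of 447, 127 of 159 and 38 of 52 genes, and none of these motifs was found in the windows of Myl4, Lrtm1, Timp4, Irx4, Cpxm2 or Thbs4.

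Sarcomere genes, a list that holds the light chains and other chamber-specific genes named above, differed in both directions. Of 37 measured members, 10 were higher, 7 lower and 20 not called, beside 32.7% of all genes called. With median centring 9 were higher and 12 lower, and without mutant replicate 1 or any 1 ventricle 4 were lower. Myh6, the main myosin heavy chain of adult mouse heart, read 14.94, 14.95 and 14.96 against 14.88, 14.95 and 14.95, and cardiac actin Actc1 also overlapped, both near the array maximum. Myh7b, a slow-type myosin, was 3.50-fold lower (7.02, 7.33 and 7.33 against 8.83, 9.06 and 9.20), whereas Myl1, a fast and embryonic light chain, was 4.2-fold higher.

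Calcium and potassium handling genes differed in both directions. The calcium handling list of 27 had 7 higher and 8 lower, its median at -0.07. Over all genes 16% were higher and 16.7% lower, the scale for each list count in this paragraph except those with median centring or an array left out. Besides Sln, Cacna2d2 and Cacna1d, Fkbp1b, a ryanodine receptor partner, was higher by 1.13 ± 0.07. The main L-type channel Cacna1c (-0.65) and junctophilin Jph2 (-0.67), both picked after their values were seen, were lower. Of 29 potassium channel genes, 8 were higher and 11 lower. Kcnv2, a modifying subunit, was lower by 1.66 ± 0.15 (6.50, 5.97 and 6.42 against 7.75, 8.24 and 7.87) and the background potassium channel Kcnk2 by 0.90 ± 0.07. Scn4b, an auxiliary subunit of the sodium channel, was 5.22-fold lower, and Fgf12, which modulates sodium channels, was 15.0-fold higher (10.27, 9.19 and 10.51 against 6.30, 6.07 and 5.87). None of 18 gap junction and intercalated disc genes reached 2-fold. Of them 6 were higher and 3 lower, the latter near the share lower over all genes. These counts were not stable: they were 4 and 4 with median centring, 3 and 0 without mutant replicate 1, 5 and 1 without mutant replicate 2, 6 and 0 without ventricle replicate 2 and 4 and 0 without ventricle replicate 3. Desmocollin Dsc2 (0.88 ± 0.08) and the connexins Gjc1 (0.83 ± 0.08) and Gja3 (0.87 ± 0.09) were higher, and Gja5, the atrial and Purkinje connexin, read 5.67, 5.40 and 5.44 against 4.92, 5.02 and 4.73. Its difference of 0.61 ± 0.16 (adjusted p = 0.0154) was at levels near background and was lost without mutant replicate 1 (adjusted p = 0.054) or ventricle replicate 3 (adjusted p = 0.0551).

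More conduction genes were higher than lower in the mutant atrium. Of 12 Purkinje and ventricular conduction genes, 7 were higher, 1 lower and 4 not called, beside 16% and 16.7% of all genes, and 4 (Irx3, Slit2, Sema3a and Cntn2) lay above both control tissues. Cntn2, a contactin that marks Purkinje cells, read 7.87, 8.37 and 8.97 against 6.04, 5.91 and 5.53, 5.96-fold higher, and Id2, an inhibitor of DNA binding, was 6.72-fold higher and a kept atrial gene. Kcne1 was lower by 0.57 ± 0.14, a call lost with the Y-linked covariate (adjusted p = 0.0993). Of 10 sinus node genes 6 were higher, 1 lower and 3 not called, with Shox2 at 1.76 ± 0.15 and Rgs6 at 1.62 ± 0.14, both kept atrial genes. The lower one, the matricellular protein Smoc2, named after its value was seen, had the list's largest difference: it read 9.07, 8.62 and 8.13 against 10.68, 10.67 and 10.97 and is a missing ventricular gene. How many conduction cells each dissection held was not measured.

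Energy metabolism separated the mutant atrium from ventricle in 1 direction, on the same side as control atrium. Medians for control atrium over ventricle were lower than the mutant's: -0.92 (fatty acid oxidation), -0.58 (TCA cycle and pyruvate) and -0.34 (oxidative phosphorylation). Of 29 fatty acid oxidation genes, 26 were lower and 1 higher in mutant atrium, with a median of -0.65. Of 22 genes of the TCA cycle and pyruvate oxidation, 18 were lower and none higher (median -0.40), and of 51 genes of oxidative phosphorylation, 27 were lower and none higher (median -0.19). With median centring the last count was 43, where 5884 of all 18193 genes were lower. Beside the 16.7% of all genes called lower, these shares are large, but the sizes are small: 3 of these fatty acid genes and none of the others reached 2-fold. Eci1, an isomerase of unsaturated fatty acid oxidation, was 2.04-fold lower (adjusted p = 2.09e-05). Acot2, a mitochondrial thioesterase, read 10.60, 10.66 and 10.51 against 11.66, 11.52 and 11.74, with no overlap, in mutant and ventricle. Mlycd, which removes the inhibitor malonyl-CoA, was lower by 0.90 ± 0.08 and the thiolase Acaa2 by 0.77 ± 0.07. Suclg2, of succinyl-CoA ligase, was lower by 0.94 ± 0.07 and Pdhx, of pyruvate dehydrogenase, by 0.75 ± 0.08. Among respiratory subunits, Ndufs4 read 11.47, 11.62 and 11.52 against 12.10, 12.06 and 12.06, and Sdha was lower by 0.45 ± 0.06.

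Glucose and creatine metabolism moved less evenly, beside 16% of all genes higher and 16.7% lower. The glycolysis and creatine lists had medians of -0.20 and -0.30 in the mutant, and -0.28 and -0.59 in control atrium against ventricle. Of 17 glycolysis genes 6 were lower and 1 higher, and 10 were lower with median centring and 4 without mutant replicate 3. Hexokinase Hk2, the insulin-regulated form, read 11.10, 11.22 and 11.29 against 12.19, 12.21 and 12.32, 2.04-fold lower (adjusted p = 1.47e-05), while Hk1 was higher by 0.54 ± 0.07 and above control atrium by 0.81. Of 15 creatine and muscle energy genes 8 were lower and 1 higher (12 lower with median centring): the creatine transporter Slc6a8 was lower by 0.66 ± 0.08 and the brain-type creatine kinase Ckb higher by 0.58 ± 0.09.

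**Figure D5:**
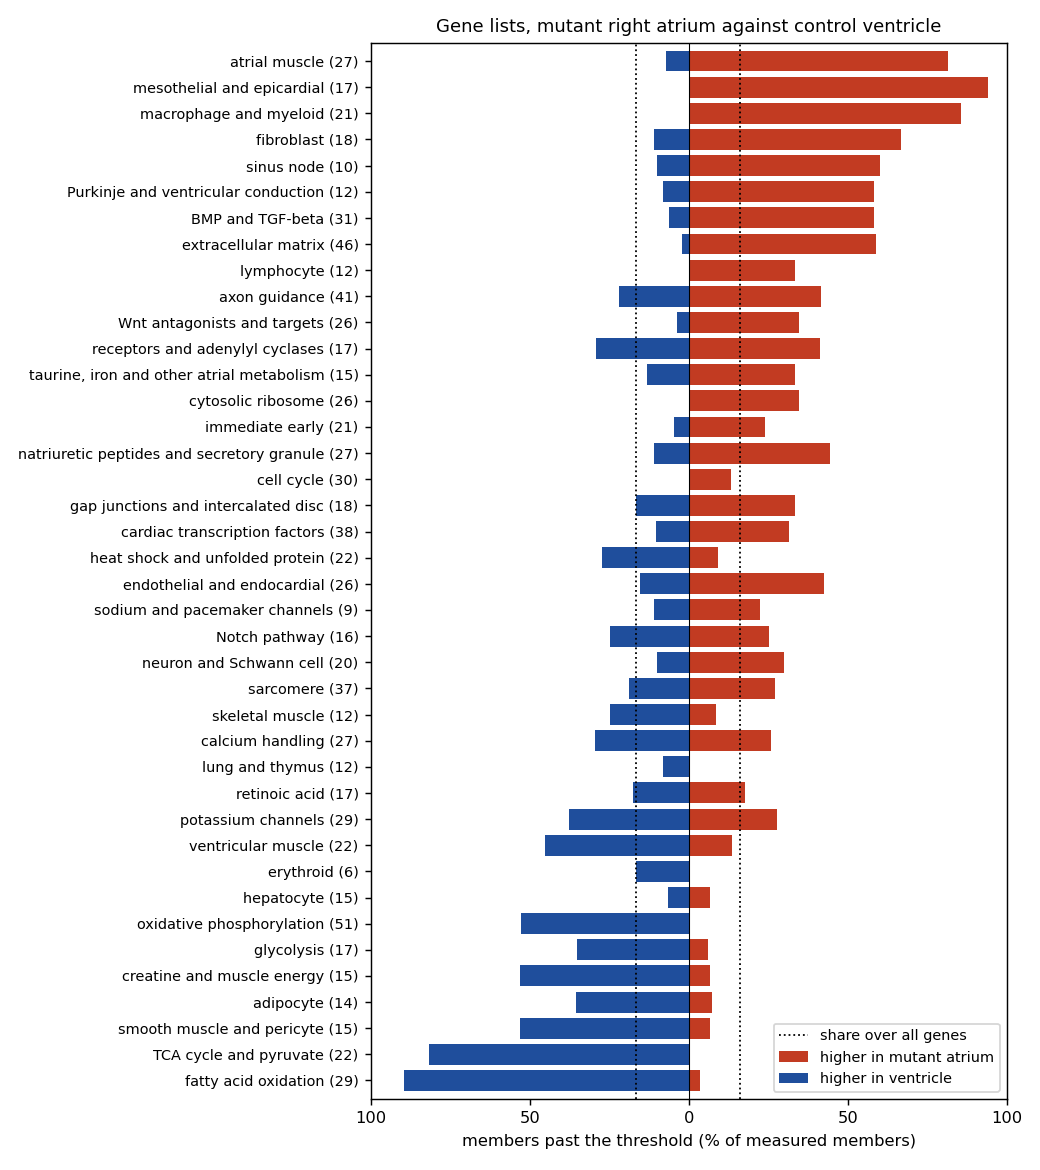
Share of the measured members of each gene list (y axis, number measured in brackets) that were higher (red, to the right) or lower (blue, to the left) in mutant right atrium than in ventricle at adjusted p 0.05, in percent (x axis), ordered by the median log2 ratio. Dotted lines are the shares over all genes, 16% and 16.7%. Mesothelial, macrophage and atrial muscle lists lie far to the right and fatty acid oxidation, TCA cycle and oxidative phosphorylation to the left.

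Markers of other cell types also separated the tissues, and in these bulk samples more cells of a type and more RNA per cell cannot be told apart. The part of cell makeup in the muscle gene results was not tested. Shares over all genes, for the counts that follow, were 16% higher and 16.7% lower. Of 17 mesothelial and epicardial markers, 16 were higher and none lower in mutant atrium, with a summed log2 level of 12.65 to 12.92 against 11.31 to 11.62 in ventricles and 14.13 to 14.23 in control atria. The uroplakin Upk3b read 10.56, 10.23 and 10.44 against 8.53, 7.83 and 8.09, 4.78-fold higher, and Bnc1, a mesothelial zinc finger factor, was 2.9-fold higher. Both lay below control atrium, by 1.75 and 2.02. Of 21 macrophage and myeloid markers, 18 were higher and none lower. Their summed level was 15.09 to 15.56 in mutant atria, 14.10 to 14.75 in ventricles and 14.89 to 14.95 in control atria. Csf1r, the receptor for the macrophage growth factor, read 12.19, 12.43 and 12.41 against 11.10, 10.82 and 10.94, 2.61-fold higher, and Cd163 was 2.68-fold higher. Among 12 lymphocyte markers 4 were higher and none lower, at low levels, and 2 were higher without ventricle replicate 3.

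More fibroblast and matrix genes were higher than lower, beside 16% of all genes higher and 16.7% lower. Of 18 fibroblast markers, 12 were higher, 2 lower and 4 not called, with summed levels of 16.36 to 16.38 against 15.37 to 15.55. Tcf21, a fibroblast transcription factor, was 4.45-fold higher and Dpt (dermatopontin) 2.61-fold, neither different from control atrium at the threshold, whereas the microfibril protein Mfap4 (9.49, 9.83 and 9.35 against 7.55, 7.32 and 7.46) also exceeded control atrium, by 1.56. Decorin (Dcn), an abundant small proteoglycan, was higher by 0.84 ± 0.06. Fap, a surface protease of activated fibroblasts, named after its value was seen, went the other way at 5.59, 6.45 and 6.18 against 8.12, 8.10 and 8.17, a difference of -2.06 ± 0.18. Of 46 matrix genes 27 were higher, 1, Timp4, lower and 18 not called. With the Y-linked covariate 23 were higher and 6 lower, and without mutant replicate 2 there were 25 and 3. In this list 14 were kept atrial genes and 3 lay above both controls. Efemp1, a fibulin, was higher by 2.11 ± 0.10 and biglycan (Bgn) by 1.48 ± 0.08.

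Of 26 endothelial and endocardial markers 11 were higher and 4 lower, beside 16% and 16.7% of all genes, so that the share lower was no larger than over all genes. Without mutant replicate 2 the counts were 10 and 6 and with median centring 10 and 7. The list had summed levels of 15.36 to 15.58 against 15.10 to 15.18. The higher ones included Npr3, the natriuretic peptide clearance receptor of endocardium (11.97, 11.29 and 11.56 against 7.83, 7.56 and 7.51), 15.7-fold higher, Plvap, of fenestrated and endocardial endothelium, 11.0-fold higher, and von Willebrand factor (Vwf), 7.40-fold higher. None of these 3 differed from control atrium at the threshold. The capillary markers Car4 (-2.09) and Aqp1 (-1.14), picked after their values were seen, were lower. Of 15 smooth muscle and pericyte markers 8 were lower and 1 higher, with summed levels of 14.45 to 14.51 against 14.95 to 15.15. The pericyte genes Rgs5, Kcnj8 and Higd1b were lower by 1.31 ± 0.14, 1.14 ± 0.13 and 1.29 ± 0.21, and the list summed to 13.86 to 14.00 in control atria. Against control atrium Rgs5 and Higd1b were higher in the mutant, and Kcnj8 did not differ at the threshold (adjusted p = 0.0604).

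The remaining cell type lists gave fewer calls, to be read beside 16% of all genes higher and 16.7% lower. Of 20 neuron and Schwann cell markers 6 were higher and 2 lower (6 and 5 with median centring), with the adhesion molecule Ncam1 at 1.27 ± 0.10 and the receptor Ret at -2.14 ± 0.16. Of 14 adipocyte markers 5 were lower and 1 higher (8 lower with median centring, 3 without mutant replicate 3 or ventricle replicate 2 or 3), led by Dgat2, an enzyme of triglyceride synthesis, at -1.54 ± 0.10. Of 12 skeletal muscle markers 3 were lower and 1 higher, and of 6 erythroid markers 1 was lower, a call lost without any 1 mutant replicate or ventricle replicate 1. Of 15 hepatocyte markers 1, Ahsg (2.93 ± 0.13), was higher and 1, Apob, lower. Their summed level lay between 9.67 and 9.87 in the mutants and between 9.26 and 9.33 in the ventricles, but reached 11.74 to 14.25 in control atria, so part of the 167 atrial genes that mutant and ventricle did not separate are liver transcripts such as Alb, Serpina1c and Ttr, chosen after their values were seen. Of the lung and thymus markers 1 of 12 was called, lower, and 5 with median centring.

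Among signalling pathways, BMP and TGF-beta genes were mostly higher. The list counts here, except those with median centring or an array left out, stand beside 16% of all genes higher and 16.7% lower. Of 31 measured members 18 were higher and 2 lower (median 0.61), and 8 were kept atrial genes. Besides the ligand Bmp10, Bmp6 read 9.99, 9.95 and 10.06 against 8.62, 8.50 and 8.34, the type I receptor Acvr1 was higher by 1.25 ± 0.08, the inhibitory Smad6 by 1.98 ± 0.13 and the target Id2 by 2.75 ± 0.12. Of 26 Wnt antagonists and targets 9 were higher and 1 lower (7 and 3 with median centring), with the secreted antagonist Frzb at 1.48 ± 0.09 and the receptors Fzd7 and Fzd1 at 1.11 ± 0.08 and 0.71 ± 0.07. Of 16 Notch pathway genes 4 were higher and 4 lower, and 2 and 2 without mutant replicate 2, 2 and 3 without mutant replicate 3 or ventricle replicate 2 and 2 and 4 without ventricle replicate 1: Notch2 (0.84 ± 0.11) and Notch1 (0.64 ± 0.15) were higher and Notch3, of mural cells, lower (-0.59 ± 0.12). Of 41 axon guidance genes 17 were higher and 9 lower (15 and 14 with median centring), 5 lay above both control tissues and 1, Efnb3, below both. Slit3, the relative of Slit2, read 9.10, 8.71 and 9.16 against 6.18, 6.06 and 6.52, and unlike Slit2 it did not differ at the threshold from control atrium, at 8.71, 8.80 and 8.78 (adjusted p = 0.298).

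The retinoic acid list differed about as often as all genes did. Of 17 members 3 were higher and 3 lower, beside 16% and 16.7% of all genes, and 3 and 7 with median centring. Among them were the synthesising enzyme Aldh1a1 at 1.71 ± 0.15, Rxrg, a retinoid receptor, at -1.05 ± 0.08 and the degrading enzyme Cyp26b1 at -1.16 ± 0.10. Of 17 receptor and adenylyl cyclase genes 7 were higher and 5 lower. Gnao1, a G protein alpha subunit, read 9.80, 9.54 and 10.05 against 7.23, 6.81 and 7.92, 5.56-fold higher, and the G protein regulators Rgs2 and Rgs4 went opposite ways (1.26 ± 0.15 and -1.25 ± 0.20). Of 38 cardiac transcription factors 12 were higher and 4 lower (10 and 8 with median centring), and Foxp1, a forkhead factor, was higher by 1.04 ± 0.08. Of 27 natriuretic peptide and secretory granule genes 12 were higher and 3 lower (1 lower without any 1 mutant replicate or ventricle replicate 1), and Corin, the protease that activates Nppa, was higher by 0.77 ± 0.08.

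Growth, stress and translation genes mostly did not differ at the threshold, as was so of all genes, where 16% were higher and 16.7% lower. Of 30 cell cycle genes 4 were higher, a share no larger than over all genes, and none lower. The 4 were Cenpf, Ccnd2 (0.66 ± 0.08), Mcm6 (0.87 ± 0.15) and Mki67 (0.43 ± 0.10), the last lost with the Y-linked covariate. Of 22 heat shock and unfolded protein genes 2 were higher and 6 lower, with the small heat shock protein Hspb6 at -0.90 ± 0.17. That balance moved as arrays were left out: the counts were 4 and 2 without mutant replicate 1, 1 and 2 without mutant replicate 2, 1 and 4 without mutant replicate 3 or ventricle replicate 3, 0 and 4 without ventricle replicate 1 and 0 and 2 without ventricle replicate 2. Fewer of all genes were called in these fits as well, 4657 to 5251 against 5956. Of 21 immediate early genes 5 were higher and 1 lower (3 higher without ventricle replicate 2 or 3), with Ccn2, a matricellular protein, at 13.97, 13.47 and 13.91 against 11.01, 11.51 and 10.95 and Egr1 2.28-fold higher. Of 26 cytosolic ribosome genes 9 were higher and none lower, by 0.35 at most, and with median centring 2 were higher and 1 lower. Only 2 were higher without mutant replicate 1 or ventricle replicate 3, 3 without mutant replicate 2, 4 without ventricle replicate 1 or 2 and 5 without mutant replicate 3. Of 15 taurine, iron and related genes 5 were higher and 2 lower: Cdo1, of taurine synthesis, was 7.31-fold higher and did not differ from control atrium at the threshold, and Slc6a6, the taurine transporter, read 12.33, 12.88 and 12.41 against 11.59, 11.35 and 11.31 and stood above both control tissues.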

How the data were processed

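RNA of 9 samples was hybridised to Affymetrix mouse arrays. The authors deposited an intensity per probe set, summarised with RMA per the submitters' processing notes, whose version is not given in the sources used here. This method subtracts background, equalises the distributions of the arrays and summarises probes. The values are on a linear scale, judged from their range, so log2 was taken first.

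Of 45101 probe sets, 64 controls, 932 naming several genes and 9160 naming none were not used. Each of 18193 genes was represented by its brightest probe set on average, 18032 of them matched to RefSeq by gene ID. A mean per group was fitted over all 9 arrays with limma 3.58.1 (lmFit, eBayes; 6 residual and 3.48 prior degrees of freedom) in R 4.3.3, tested two-sided, with Benjamini-Hochberg adjustment and a threshold of 0.05. Classes ask for at least 2-fold in both contrasts. All arrays carry the same weight. P-values measure only the spread between these samples. The number of arrays limits the precision.

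The members, classes and 41 gene lists were chosen with earlier results of these data known. Named by rule were up to 12 genes of each class whose mutant and ventricle arrays did not overlap (ranked by the difference from ventricle, or, above and below both controls, by the smaller of the 2 differences), the 4 most significant members per list, the atrial and ventricular muscle lists and further heart and sex-linked genes. Where another gene is named, the text says so or gives it as an edge of a class. On simulated data 96 of 100 genes changed 2-fold and 71 of 100 changed 1.5-fold were recovered, with 8 false of 175 calls. Only these genes were changed there, and the noise was independent with 1 spread per gene in all groups. In the data 32.7% of genes were called and spreads could differ between groups, so these rates need not carry over. Sequences are RefSeq's. Alternatives were the replicate block, variance trend, dim filter, normalisation, centring, probe set mean, array weights, 2 groups only, other thresholds and each array left out. Figures were drawn with matplotlib 3.10.9 in Python 3.11.15.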

Additional observations from a re-analysis of the deposited data

Results flagged for a closer look

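Among the 9160 probe sets without a gene name, which no comparison of the report used, 7 lay at least 2-fold above both control tissues in the mutant right atrium, a signal in data outside the main measurement. Probe set 1446392_at read 8.84, 9.15 and 9.02 in mutant atria and 5.89, 5.78 and 5.66 in ventricles, a log2 difference of 3.23 ± 0.09 (limma, adjusted p = 3.09e-08). Probe set 1440650_at read 8.49, 9.34 and 9.09 against 5.13, 5.51 and 4.65. Of the 9160 unnamed probe sets 778 were higher and 711 lower in mutant atrium than in ventricle. These are smaller shares than the 13.4% and 14.1% of the 34945 named probe sets. The 7 above both control tissues are likewise a smaller share than the 52 of 18193 genes (0.286%). No group was large enough for a search for single deviating samples.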

How the results depend on the processing

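The numbers of genes called, kept, missing, above and below both control tissues stayed within 1.5 times the reported ones under the alternatives run, except as follows. A 1.5-fold minimum gave 1042 kept, 599 missing, 146 above and 35 below, by its looser construction. An adjusted p of 0.01 left 3648 genes called. Median centring gave 11 genes below both. Leaving out each array in turn gave 4657 to 5961 genes called, 417 to 465 kept, 139 to 175 missing, 48 to 65 above and 5 to 15 below, the 15 without mutant atrium replicate 1. The labels do not pair the replicate numbers, and same-numbered arrays of mutant atrium and ventricle did not deviate together (correlations -0.102, -0.073 and -0.028). With the replicate number as a block 5573 genes were called, 453 kept, 158 missing, 51 above and 7 below. With the Y-linked covariate, added after seeing the data, the classes held 490, 204, 48 and 6, with 408 kept and 145 missing genes shared with the reported classes. Signs turned for 3 named genes: Egr3 (0.19) and Rps4x (-0.06) with the mean of all probe sets, and Uty (-0.33) with the Y-linked covariate. The cause was not tested. Levels near the array maximum and near background limit the folds. Counts of several gene lists also moved by over 1.5 times, and the larger of these moves are given beside those lists.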
